A study of Mus musculus with 12 samples.

Results

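Sox2 and the genes of the Notch pathway were followed in the mouse otic vesicle, the closed epithelium from which the inner ear develops, and in a cell line derived from it. The set comprised 10 genes: the transcription factor gene Sox2, the ligand genes Jag1 and Dll1, the receptor gene Notch1, the glycosyltransferase gene Lfng, and Hes1, Hes5, Hes6, Hey1 and Hey2 of the Hes and Hey family. Members were all probe sets listed with 1 of these genes, which gave 16 of the 45101 probe sets on the array, 3 for Jag1, 2 each for Lfng, Notch1, Hes5 and Hes6, and 1 for each of the others. No probe set listed any of them together with another gene. Expression was measured on 12 Affymetrix arrays in 6 groups of 2. There were wild-type and Dlx5-null vesicles at embryonic day 10 (E10) and the same at E10.5, each array from a pool of 4 to 8 vesicles freed of mesenchyme with dispase. Dlx5 encodes a homeodomain transcription factor made in the otic placode and dorsal vesicle. The other groups were cells of the 2B1 line that were transiently transfected with Dlx5 and GFP or with GFP alone, then kept for 4 days at 37 °C without gamma-interferon. The line had been grown at 32 °C with gamma-interferon, a condition that all 4 of its arrays share. The sources used here give neither the strain nor the allele of the null embryos.

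In Notch signalling a ligand on 1 cell, such as Jag1 or Dll1, engages the Notch1 receptor on its neighbour. The receptor is then cleaved, and its intracellular domain joins the DNA-binding protein Rbpj and switches on repressor genes such as Hes1, Hes5, Hey1 and Hey2. Lfng adds sugars to the receptor and alters which ligands it answers. In the early ear, Dll1 marks and restrains the neuroblasts that leave the epithelium. Sox2, Jag1 and Lfng mark the prosensory and neurogenic domain from which hair cells, supporting cells and neurons arise. Hes6 is a family member that opposes Hes1 and accompanies neurogenesis.

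The labels were checked first. Dlx5 read 6.11 to 6.30 on the log2 scale in the 4 wild-type arrays and 7.27 to 8.02 in the 4 arrays labelled Dlx5-null, so it was higher where it should be absent. Whether its probes lie in the deleted part was not examined. Groups are therefore called by their labels, from which all directions are taken. Both E10 replicate 1 arrays had a narrower spread of values (SD 2.32 and 2.33) than the E10 replicate 2 arrays (2.47 and 2.45) and lower Xist (6.74 and 6.59 against 9.17 and 9.10). At E10 the Y-linked Eif2s3y read 7.04 and 3.96 with the wild-type label, beside 6.50 and 6.17 with the null label. At E10.5 it read 3.21 and 3.45 against 4.82 and 5.04, so there it was higher in both arrays with the null label. Its part in differences by label was not tested beyond its use as a covariate. Within each genotype both E10.5 values of Eif2s3y also lay under both E10 values, and its part in differences by stage was not tested. Array means were 6.10 to 6.11 in vesicles and 5.76 to 5.82 in 2B1 cells, so the 2 sets appear to have been normalized apart, and no level was compared between them. Of the 17 otic genes with a probe set in a list of 19, 16 were above the limit for dim genes in vesicles (the lowest 25% of genes by mean, 5.19) and 13 above that in 2B1 cells (4.85). As the limit leaves out only 25% of all genes, the count in 2B1 cells is near the share of all genes. There 11 of 16 periotic mesenchyme genes passed the limit too, so the count does not show that the line is otic. Of 15 hindbrain and neural tube genes with a probe set, 10 were under the limit in vesicles, Pax6, Olig2 and Nkx6-1 among them. The 5 above the limit were Pax3, Pax7, Irx3, Hoxa3 and Pou3f2, with Irx3 the brightest at 7.92 to 9.67. All 10 members passed the limit in vesicles, Hes5 with the smallest margin (mean 5.27), and 9 passed in 2B1 cells, where Hey2 was too dim. In pooled tissue, fewer cells of a type and less RNA per cell cannot be told apart.

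Sequences upstream of the members were read from the RefSeq promoter table (build GRCm38.p6), which lists 8 of the 10 genes and not Hes1 or Hey1. The 250 bases before each start were searched on both strands for TGGGAA, the core that Rbpj binds. Of the 8 genes, Lfng, Hes5 and Hey2 held it, and it was found in 21.6% of all 32851 promoter windows of that length. The longer core GTGGGAA, which contains the first, was held by the same 3 genes and by 5.42% of all windows. Both Rbpj cores of Hes5 are shown, as this gene is a well known Notch target that the promoter table lists. Their windows lie inside the span that RefSeq gives the gene (chr4:154960626-154962372), before the start that the promoter table uses. The Lfng and Hey2 promoters follow, with TGGGAA or its complement in capitals.
Hes5, chr4:154960685-154960714, plus strand: agggcgagcgcgTTCCCAcagcccggacat
Hes5, chr4:154960829-154960858, plus strand: ggccgccgagtgTGGGAAcggccgcggcgc
Lfng, chr5:140607091-140607340, plus strand: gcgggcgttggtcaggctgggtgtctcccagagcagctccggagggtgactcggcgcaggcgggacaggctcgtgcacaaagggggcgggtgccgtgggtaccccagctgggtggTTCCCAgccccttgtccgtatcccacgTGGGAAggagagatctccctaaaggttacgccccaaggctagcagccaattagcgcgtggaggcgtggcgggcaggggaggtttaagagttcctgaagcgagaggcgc
Hey2, chr10:30842784-30843033, minus strand: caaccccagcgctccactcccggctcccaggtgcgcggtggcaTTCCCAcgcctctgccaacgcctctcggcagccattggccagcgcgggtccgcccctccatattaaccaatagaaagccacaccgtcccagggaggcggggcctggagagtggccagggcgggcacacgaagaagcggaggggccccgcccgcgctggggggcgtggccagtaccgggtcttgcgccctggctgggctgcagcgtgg
Jag1 and Dll1 are shown because both ligand genes had lower values at the later stage. Capitals mark CACGCG, a site that Hes and Hey proteins bind, and ACAAT, the core of Sox sites, on either strand.
Jag1, chr2:137116521-137116770, minus strand: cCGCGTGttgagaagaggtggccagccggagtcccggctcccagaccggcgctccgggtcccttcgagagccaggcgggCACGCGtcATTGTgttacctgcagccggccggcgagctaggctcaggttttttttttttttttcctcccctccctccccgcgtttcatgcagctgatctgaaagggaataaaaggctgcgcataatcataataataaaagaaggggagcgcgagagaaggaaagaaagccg
Dll1, chr17:15376933-15377182, minus strand: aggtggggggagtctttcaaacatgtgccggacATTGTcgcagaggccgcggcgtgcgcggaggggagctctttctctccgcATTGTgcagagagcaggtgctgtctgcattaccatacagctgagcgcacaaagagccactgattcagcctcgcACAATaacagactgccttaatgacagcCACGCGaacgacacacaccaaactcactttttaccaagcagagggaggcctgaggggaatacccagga
CACGCG was held by 3 of the 8 genes (Jag1, Dll1 and Lfng) and by 7.62% of all windows, and ACAAT by 3 (Jag1, Dll1 and Hes5) and by 27.7%. The N box CACNAG was held by 3 of the 8 genes and by 36.7% of windows, and the homeodomain core TAATTA by none of the 8 and by 4.84% of windows. Counts of genes take any listed start and shares take single windows. Dll1 and Hes6 have 2 listed starts, and the matches of Dll1 and the N box of Hes6 lie before the second only. At the first start of each gene 2 genes held CACGCG, against 7.74% of first starts. For the Sox core it was 2 genes against 28.4%, and for the N box 2 genes against 36.7%. These matches describe letters only and show no binding.

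From E10 to E10.5 Sox2 and both ligand genes fell, and Hey1 rose, while Hes1, Hes5, Hes6, Hey2, Lfng and Notch1 did not pass the test. The test was limma over 13645 genes at an adjusted p under 0.05 (Benjamini-Hochberg). It was fitted on all 8 vesicle arrays with genotype as a covariate, a comparison added after the values of each genotype were seen. In it 4 of the 10 genes passed, 1 higher and 3 lower, where 15.8% of all genes passed (9.28% higher, 6.54% lower). The arrays of both stages did not overlap within either genotype for the same 4 genes, against 31.5% of all genes, and the median difference was 0.05 over the 10 genes and 0.05 over all genes. With probe sets tested singly 4 of the 16 passed, all lower (2 of Jag1, and those of Sox2 and Dll1), against 8.51% of all sets. Within wild-type vesicles alone 0 of the 10 passed in limma (6 had an unadjusted p under 0.05), against 2.17% of all genes (22.5%), and within labelled-null vesicles 0 passed (3 at an unadjusted p under 0.05), against 0.022% (15.3%).

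At E10 Sox2 read 9.83 and 9.88 in wild-type vesicles and, in those labelled null, 9.36 and 9.27. At E10.5 the wild-type arrays read 9.18 and 9.32 and the labelled-null arrays 8.92 and 8.54. Within each genotype both E10.5 values lay under both E10 values. The fall was 0.60 on the log2 scale, or 1.51-fold (SE 0.11, 4 arrays a stage, limma adjusted p = 0.0141). It was -0.60 in wild-type and -0.59 in labelled-null vesicles, and the difference between these 2 changes was 0.02 (SE 0.25, 95% interval -0.56 to 0.60). Leaving out wild-type E10.5 replicate 1 (limma adjusted p = 0.0715) or replicate 2 (0.0543) ended the call.

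Jag1, which encodes the ligand of the prosensory domain, had E10 values of 8.28 and 8.77 in wild-type and of 9.35 and 8.62 in labelled-null vesicles. Its E10.5 values were 7.80 and 7.65, and 7.93 and 7.84 with the null label, and all 4 lay under all 4 E10 values. The fall was 0.95, or 1.93-fold (SE 0.19, limma adjusted p = 0.0148), with -0.80 in wild-type and -1.10 in labelled-null vesicles. A further Jag1 probe set gave a fall of 1.25 (SE 0.19, limma adjusted p = 0.00736 in the fit of single probe sets), and the third, which lay between 5.42 and 5.86 throughout, gave -0.05. Without any 1 of the E10.5 arrays Jag1 narrowly missed the threshold, at an adjusted p = 0.0502 and 0.0577 without the wild-type and 0.0507 and 0.0509 without the labelled-null replicates 1 and 2.

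Dll1, the ligand gene of neuroblasts, was nearly level across the 4 arrays at E10 and spread out at E10.5. Wild-type vesicles read 8.14 and 8.09 at E10 and 6.80 and 7.35 at E10.5. Labelled-null vesicles read 8.17 and 8.09, then 7.55 and 7.12. No E10.5 value reached an E10 value. The fall was 0.92, or 1.89-fold (SE 0.16, limma adjusted p = 0.00959), with -1.04 in wild-type and -0.80 in labelled-null vesicles. Dll1 passed whichever of the 8 arrays was omitted.

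The receptor gene Notch1 went from 7.67 and 8.06 at E10 to 8.63 and 8.57 at E10.5 in wild-type vesicles. The labelled-null arrays went from 7.80 and 8.31 to 8.58 and 8.10. Its groups overlapped only in labelled-null vesicles, and the difference of 0.51 (SE 0.18) had a limma adjusted p = 0.0883. It passed without labelled-null E10 replicate 2 (0.66, adjusted p = 0.0208). The change was 0.74 in wild-type and 0.29 in labelled-null vesicles, and the 2 changes differed by -0.45 (SE 0.35, limma adjusted p = 1.00). The other Notch1 probe set gave 0.10 (SE 0.12). Lfng, the modifier of the receptor, hardly moved, with all 8 values of its brighter set between 6.79 and 7.0 and a difference of 0.06 (SE 0.10, 95% interval -0.16 to 0.28).

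Among the repressor genes downstream of the receptor, Hey1 went from 7.80 and 8.15 at E10 to 8.59 and 8.44 at E10.5 in wild-type vesicles. With the null label it went from 7.90 and 8.17 to 8.53 and 8.33. All 4 E10.5 values were above all 4 E10 values, and Hey1 rose by 0.47, or 1.38-fold (SE 0.13, limma adjusted p = 0.0417). This call was the least secure of the 4. Leaving out single arrays ended it for both E10 replicate 1 arrays (limma adjusted p = 0.0739 for wild type and 0.109 for labelled null) and for each array of E10.5 (0.149 and 0.117 for wild type, 0.119 and 0.0694 for labelled null). Without both E10 replicate 1 arrays the difference was 0.31 (adjusted p = 0.0825), whereas Sox2 (-0.59), Jag1 (-0.89) and Dll1 (-0.89) passed without them. Hes1 lay between 5.56 and 5.99 and differed by -0.17 (SE 0.12, 95% interval -0.45 to 0.12). Hes5 lay between 5.14 and 5.43 in its brighter set and differed by 0.13 (SE 0.10, 95% interval -0.10 to 0.36), close to the limit for dim genes, so a change in it may not show. Hey2 differed by 0.03 (SE 0.10, 95% interval -0.20 to 0.26).

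Hes6, the antagonist of Hes1, read 9.98 and 10.57 in wild-type vesicles at E10 and 10.94 and 10.90 at E10.5. In labelled-null vesicles it was already at 10.71 and 10.99 at E10 and stood at 10.96 and 10.85 at E10.5. The change was 0.65 (SE 0.22) in wild-type and 0.06 (SE 0.22) in labelled-null vesicles, and over both genotypes 0.35 (SE 0.18, limma adjusted p = 0.201). The changes differed by -0.59 (SE 0.31, limma adjusted p = 1.00). Its other probe set gave 0.65 over both genotypes (SE 0.19, limma adjusted p = 0.0684 in the fit of single probe sets).

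**Figure D1:**
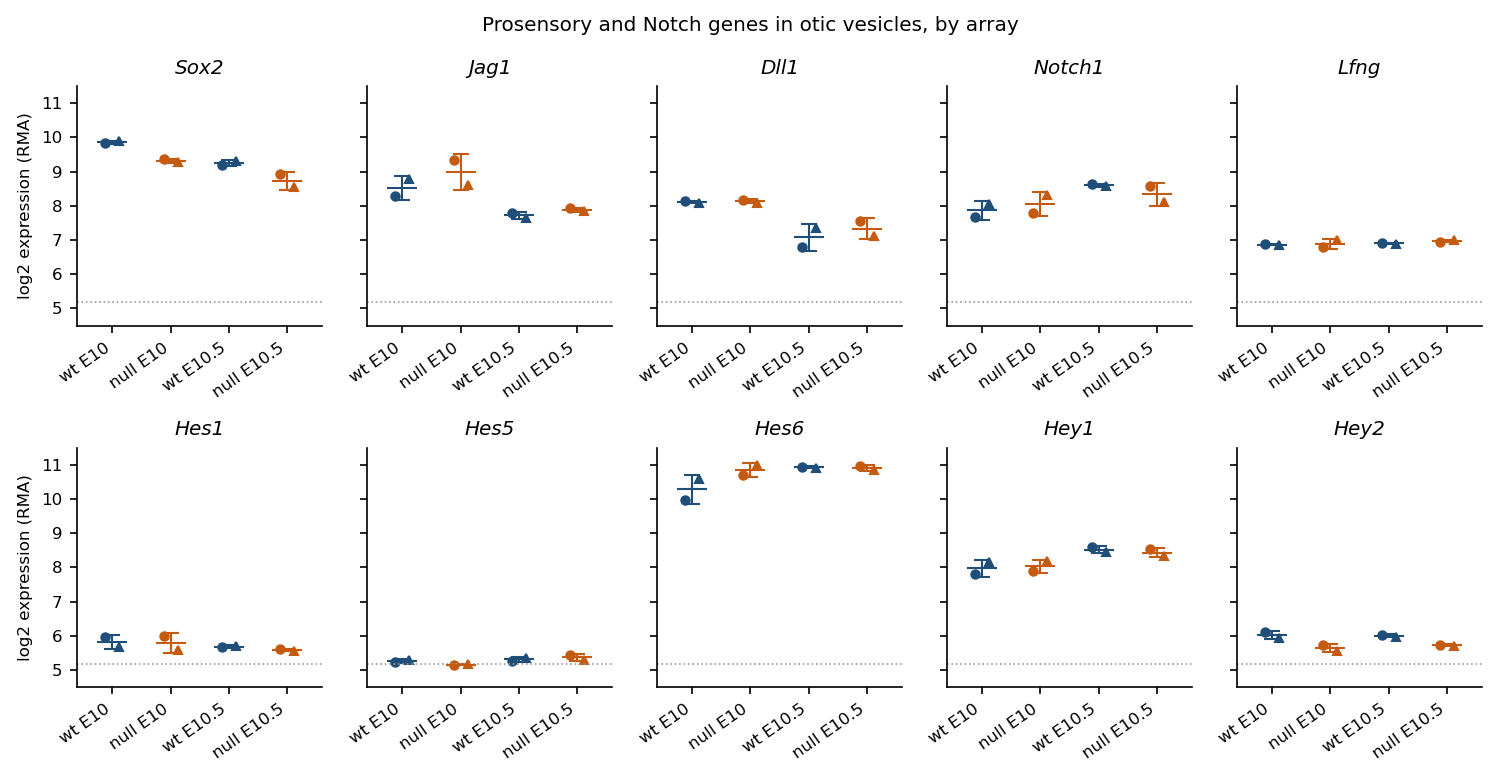
Log2 expression of the brightest probe set of each of the 10 genes in the 8 vesicle arrays, with wild type in blue and labelled null in orange. Circles are replicate 1 and triangles replicate 2, horizontal marks and bars are the group mean and SD (n = 2), and the dotted line is the limit for dim genes at 5.19. Sox2, Jag1 and Dll1 are lower at E10.5 in both genotypes, Hey1 is higher, and Sox2 and Hey2 are lower in labelled-null than in wild-type arrays of the same stage.

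**Figure D2:**
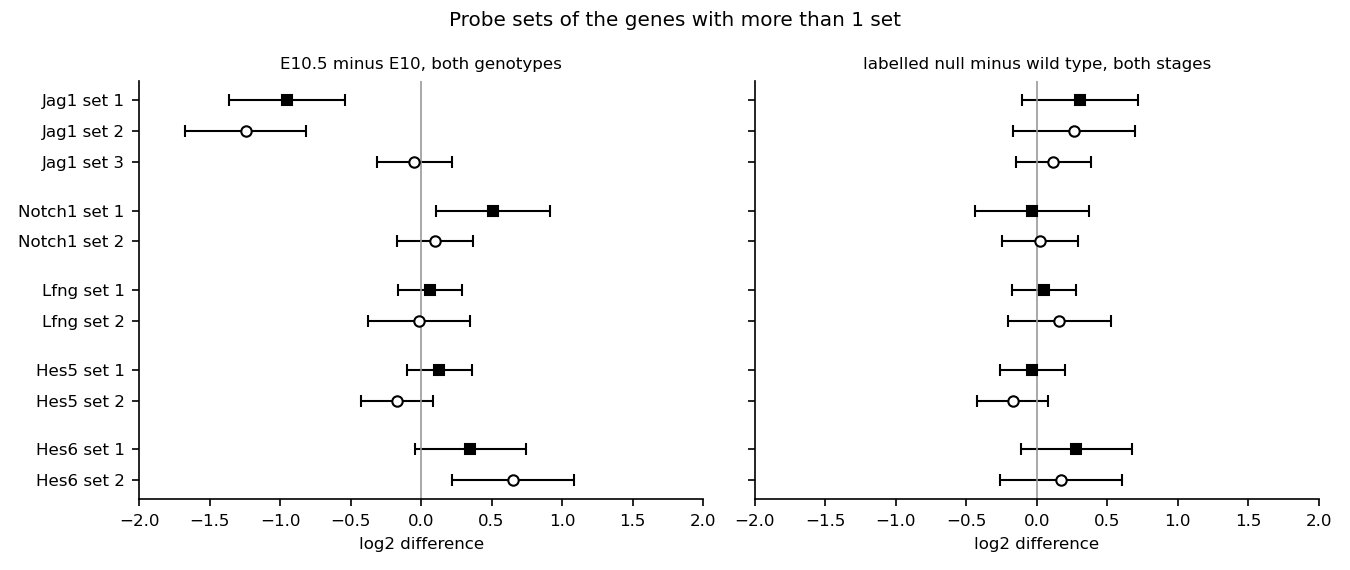
Log2 differences and 95% intervals of every probe set of the 5 genes with more than 1 set, by stage on the left and by genotype label on the right. Squares are the brightest set of a gene by vesicle mean and open circles the others. By stage, 2 of the 3 Jag1 sets lie left of 0 with intervals clear of it, and the third is at -0.05.

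The rest of the pathway was taken from lists of further Notch genes, and 7 of 46 tested genes rose and 2 fell by stage, where 9.28% of all genes rose and 6.54% fell. Of 5 tested other receptor and fringe genes 2 rose, Notch4 (1.08, SE 0.26) and Notch3 (0.83, SE 0.22), the median of the 5 being 0.36 against 0.05 over all genes. Of 19 tested genes of Notch processing and ligand uptake, 3 rose and 2 fell (median 0.21). Those that rose were Dtx3 (1.64, SE 0.17), of the Deltex family, Mib2 (0.87, SE 0.23), a ligase acting on ligands, and Ncstn (0.77, SE 0.11), a subunit of the protease that cleaves the receptor. Those that fell were Mib1 (-0.80, SE 0.14), the main ligase for ligand uptake, and Adam10 (-0.51, SE 0.11). Adam10, the protease of the first cut after ligand binding, was named after its value was seen. The Adam10 value is that of its brightest set. Another Adam10 set, nearly as bright, overlapped between stages, with 6.89 to 7.24 at E10 and 6.76 to 7.20 at E10.5. The next 2 lists held 1 called gene each, a share near that of all genes. In the nuclear complex 1 of 11 rose, the corepressor gene Tle2 (0.81, SE 0.13), with a median of 0.06 and Rbpj at 0.06 (SE 0.12). Of 8 other Notch target and Hes family genes 1 rose, Heyl (0.67, SE 0.17), with a median of 0.06. Of the 3 tested other ligand genes 0 passed limma's test and 0 had an unadjusted p under 0.05, with Dll4 at 0.18, Dll3 at -0.06 and Jag2 at 0.05.

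Markers of neighbouring cells were followed over the same interval, in which 9.28% of all genes rose and 6.54% fell and the median of all genes was 0.05. Of 13 tested proneural and neuroblast genes 7 rose and 1 fell (median 0.76), with Stmn2 (3.23, SE 0.30), Tubb3 (2.18, SE 0.28), Isl1 (1.90, SE 0.25) and Pou4f1 (1.23, SE 0.17) as the largest, and Neurod1 (-0.76, SE 0.21), which was named after its value was seen, as the gene that fell. Neurog1, the gene that starts otic neurogenesis, was at -0.33 (SE 0.18, limma adjusted p = 0.225). Of 16 tested otic and prosensory competence genes 3 rose and 3 fell. Oc90, an otoconial protein gene, rose by 1.59 (SE 0.32) and Fgfr1 by 0.88 (SE 0.24), and the early otic genes Pax8 (-1.06, SE 0.16) and Sox21 (-0.99, SE 0.14) fell along with Sox2. Of 5 tested hindbrain and neural tube genes Pax7 fell (-1.19, SE 0.14) and Irx3 rose (0.89, SE 0.24). Endothelial markers rose in 5 of 10 tested genes (Tie1 1.49, Eng 1.24, Pecam1 0.97) and fell in 0, and their mean per array went from 5.90 to 6.11 at E10 to 6.44 to 6.76 at E10.5. The Eng value is that of its brightest set. The other Eng set, nearly as bright, showed no such rise, with 7.49 to 7.97 at E10 and 7.52 to 7.88 at E10.5. Periotic mesenchyme markers rose in 5 of 13 (Lum 2.21, Col3a1 1.15, Col1a1 0.90), with a mean of 6.14 to 6.79 at E10 and 6.76 to 7.18 at E10.5. Blood markers rose in 6 of 7 (Hba-x 3.35, Slc4a1 2.63), with a mean of 7.61 to 8.37 and 9.34 to 10.4. The part of these cells in the changes of Notch3, Notch4, Heyl, Hey1, Sox2, Jag1 and Dll1 was not tested.

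**Figure D3:**
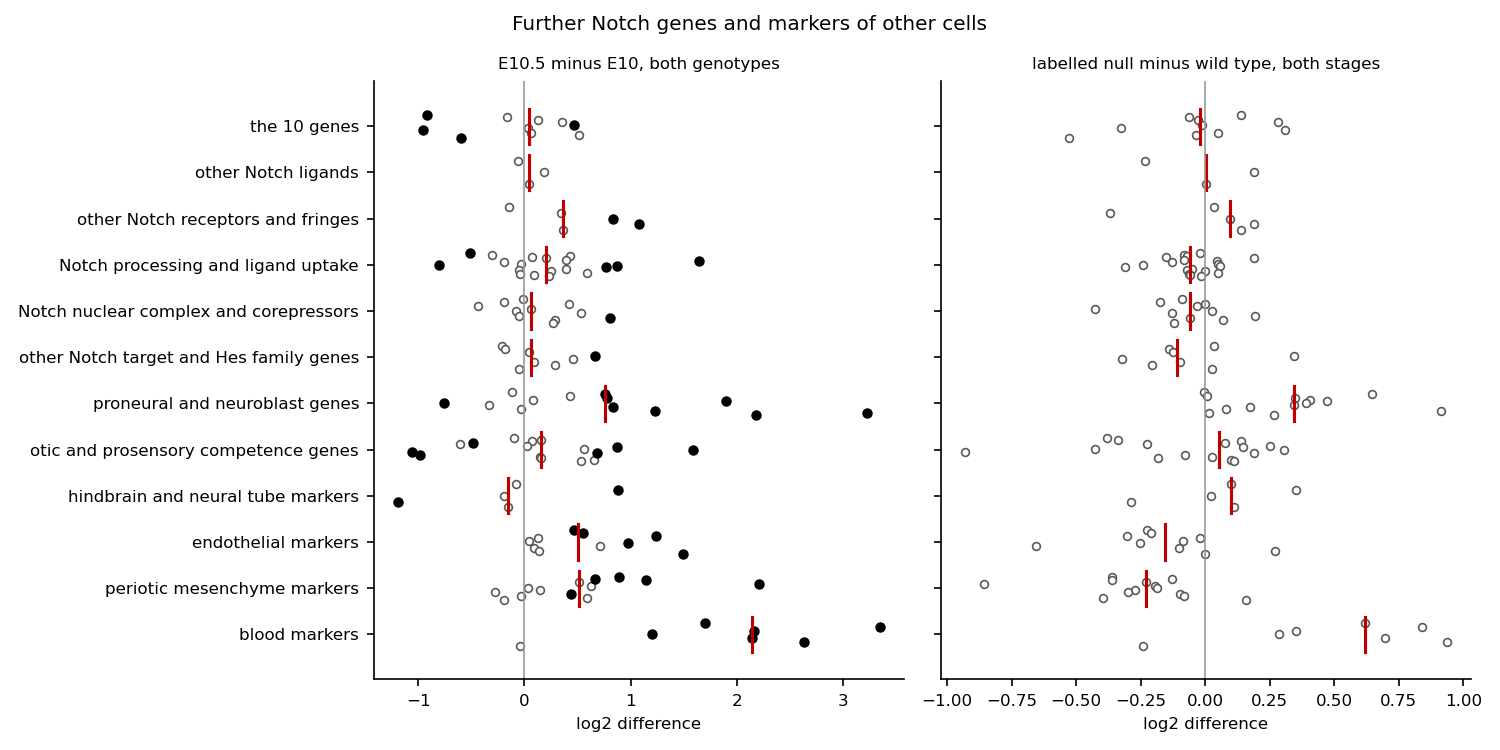
Log2 differences of the 10 genes and of each tested gene of 11 further lists, by stage on the left and by genotype label on the right. Filled circles passed limma at an adjusted p under 0.05, open circles did not, and red bars are list medians. By stage the filled points of the 10 genes are Jag1, Dll1 and Sox2 on the left and Hey1 on the right, and by genotype label every point of these lists is open.

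Labelled Dlx5-null vesicles were then compared with wild-type vesicles, the comparison by which the study looks for genes downstream of Dlx5. Sox2 and Hey2 had lower values in labelled-null arrays at both stages, and none of the other 8 genes separated the labels in the same direction at both. Over both stages 0 of the 10 passed limma's test, and 2 had an unadjusted p under 0.05, where 0.022% of all genes passed and 4.1% had an unadjusted p under 0.05. Sox2 and Hey2 were also the 2 of 10 genes whose arrays did not overlap between labels at either stage, in the same direction at both, against 5.21% of all genes (3.24% for lower values). Taking each stage alone, 4 of the 10 genes did not overlap at E10 (Hes6 higher, Sox2, Hey2 and Hes5 lower), against 17.4% of all genes, and 5 at E10.5 (Jag1 and Lfng higher, Sox2, Hey2 and Hes1 lower), against 45.1%. The median difference was -0.02 over the 10 genes and -0.01 over all genes.

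For Sox2, each labelled-null value given above lay under both wild-type values of its stage. The difference was -0.53, or 1.44-fold lower (SE 0.11, 4 arrays a group, 95% interval -0.79 to -0.27, limma adjusted p = 0.353). It was -0.54 at E10 and -0.52 at E10.5. With single arrays left out the difference over both stages ran over -0.61 to -0.46. It was -0.55 without both E10 replicate 1 arrays and -0.51 with the level of the Y-linked Eif2s3y as a covariate. The difference at E10.5 ran over -0.71 to -0.33, and was -0.33 without labelled-null E10.5 replicate 2. That array had a narrower spread of values (SD 2.38) than the other E10.5 arrays (2.45 to 2.47).

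Hey2, a Notch target gene, read 6.10 and 5.93 at E10 and 6.03 and 5.97 at E10.5 in wild-type vesicles. Labelled-null vesicles read 5.72 and 5.56, then 5.74 and 5.70. All 4 labelled-null values lay under all 4 wild-type values. The difference was -0.33, or 1.25-fold lower (SE 0.10, 95% interval -0.56 to -0.10, limma adjusted p = 0.883), and it ran over -0.35 to -0.28 with single arrays left out. At these levels, within 1 log2 unit of the limit for dim genes, RMA values are compressed.

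The other 8 genes gave differences between -0.06 and 0.31, each with a limma adjusted p of 0.999. Jag1 was at 0.31 (SE 0.19, 95% interval -0.11 to 0.73), with 0.46 at E10 and 0.16 at E10.5. The E10 value rested on labelled-null E10 replicate 1 at 9.35, and without both E10 replicate 1 arrays it turned to -0.15. Hes6 was at 0.28 (SE 0.18, 95% interval -0.12 to 0.68), with 0.58 at E10 (unadjusted p = 0.0340, limma adjusted p = 1.00) and -0.02 at E10.5. Dll1 was at 0.14 (SE 0.16), Lfng at 0.05 (SE 0.10), Notch1 at -0.04 (SE 0.18), Hes1 at -0.06 (SE 0.12), Hes5 at -0.03 (SE 0.10) and Hey1 at -0.01 (SE 0.13). The 95% intervals of these 6 genes all lay within -0.45 to 0.49, so differences beyond 1 log2 unit in either direction lie outside them. Notch1 differed by 0.19 at E10 and by -0.26 at E10.5. No member passed at E10 (3 at an unadjusted p under 0.05), at E10.5 (1) or for the interaction of label and stage (0) in limma, where 0%, 0.00733% and 0% of all genes passed and 3.31%, 2.95% and 1.97% had an unadjusted p under 0.05.

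Further Notch genes did not pass by label either. None of the 46 tested genes in the 5 lists of ligands, receptors, processing, nuclear complex and targets passed in limma, and 2 had an unadjusted p under 0.05, a share near the 4.1% of all genes. These were Rbpj (-0.43, SE 0.12, limma adjusted p = 0.814), the DNA-binding partner of the receptor, and Ncstn (-0.31, SE 0.11, limma adjusted p = 0.999). The Rbpj value is that of its brightest set, and the other 2 Rbpj sets overlapped between labels at both stages. The brighter of these had wild-type values of 7.44, 7.55, 7.31 and 7.45, the E10 pair first, beside labelled-null values of 7.48, 7.69, 7.41 and 7.24. Notch2 was at -0.37 (SE 0.20), Heyl at 0.35 (SE 0.17) and Id1, a gene also driven by BMP signals, at -0.32 (SE 0.15). The other, dimmer Notch2 set was not lower, with 5.34 to 5.60 in wild-type and 5.29 to 5.83 in labelled-null arrays. The medians of these lists lay between -0.11 and 0.10, beside -0.01 over all genes. Of 16 otic and prosensory competence genes 9 were higher and 7 lower (median 0.05) and 0 passed in limma, while 2 had an unadjusted p under 0.05. Among them Pax8 had the largest difference (-0.93, SE 0.16, limma adjusted p = 0.172). Its labelled-null values of 7.63 and 8.07 at E10 and 7.21 and 6.85 at E10.5 lay under the wild-type values of 8.93 and 9.12 and of 7.81 and 7.63. Of 13 proneural and neuroblast genes 12 were higher and 0 passed in limma (2 had an unadjusted p under 0.05), with a median of 0.34. The mean per array of the 5 tested hindbrain markers overlapped between labels. It was 6.67 to 6.88 in wild-type against 6.77 to 6.91 in labelled-null arrays at E10, and 6.59 to 6.68 against 6.66 to 6.72 at E10.5. Taken singly, 0 of the 5 genes separated the labels at E10. At E10.5, 3 did so with higher and 1 with lower labelled-null values, where 45.1% of all genes did not overlap. Blood markers had a mean of 9.34 to 9.35 in wild-type and 10.4 in both labelled-null arrays at E10.5, and of 7.63 to 8.37 and 7.61 to 8.33 at E10. Mesenchyme markers had a mean of 6.28 to 6.79 in wild-type and 6.14 to 6.52 in labelled-null arrays at E10 and of 7.04 to 7.18 against 6.76 to 6.85 at E10.5, with 12 of 13 tested genes lower over both stages (median -0.23). Endothelial markers had a mean of 6.07 to 6.11 against 5.90 to 6.10 at E10 and of 6.73 to 6.76 against 6.44 to 6.59 at E10.5. Of 10 tested endothelial genes 9 were lower over both stages (median -0.16). At E10.5 all 10 were lower and 5 did not overlap, where 45.1% of all genes did not (28.2% with lower values). The part of blood, mesenchyme and endothelial cells in the values of Sox2 and Hey2 was not tested.

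**Figure D4:**
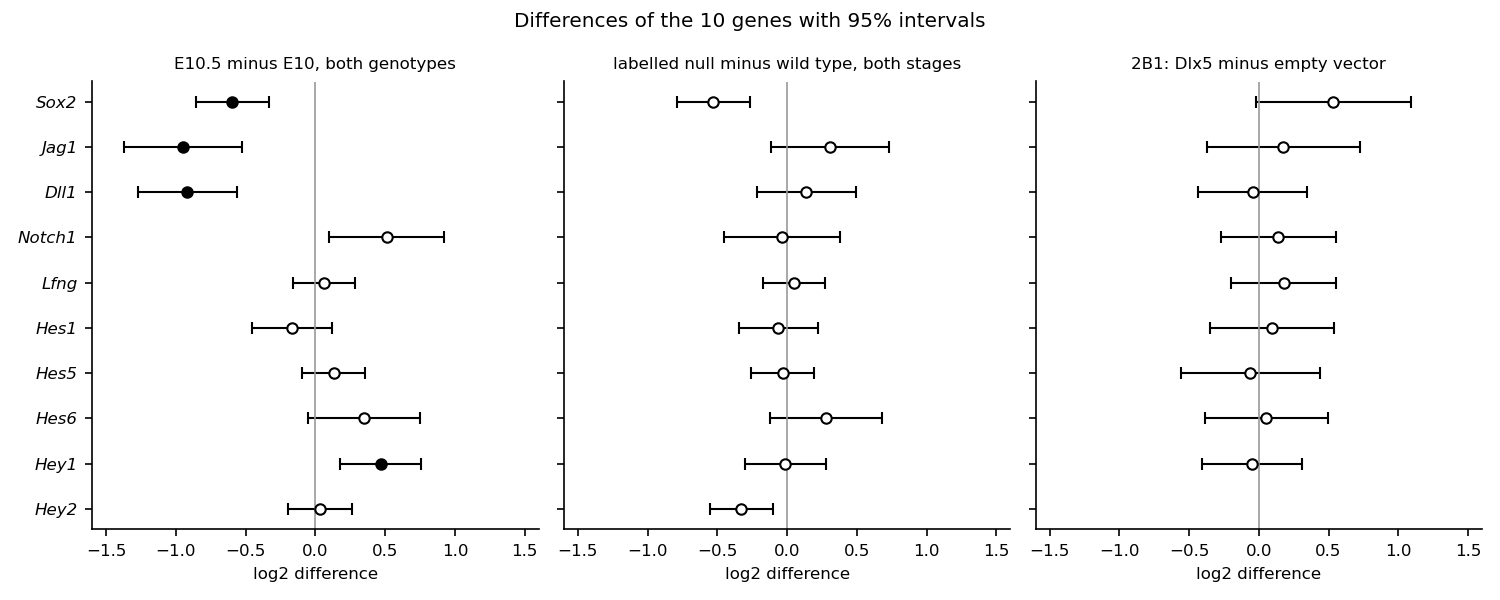
Log2 differences of the 10 genes with 95% intervals, for E10.5 minus E10 (8 arrays), labelled null minus wild type (8 arrays) and Dlx5 minus empty vector in 2B1 cells (4 arrays). Filled points passed limma at an adjusted p under 0.05, which holds for Sox2, Jag1, Dll1 and Hey1 by stage and for no gene in the other panels. Hey2 has no point in 2B1 cells, where it was too dim to be tested.

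In 2B1 cells the transfection of Dlx5 was set against the empty vector, to ask the converse question. Of the 9 tested members 0 passed limma's test and 0 had an unadjusted p under 0.05, where 0% of 13647 genes passed and 12.9% had an unadjusted p under 0.05. Arrays did not overlap for 3 of the 9, Sox2, Lfng and Hey1, against 48.8% of all genes. The Dlx5 probe set itself read 5.14 and 4.80 in transfected cells, beside 4.66 and 4.79 in controls, so the arrays show little of the transfected gene, and whether its probes lie in the transfected sequence was not examined.

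Sox2 read 6.90 and 6.44 in cells given Dlx5, beside 5.86 and 6.41 in controls. Both transfected values were above both control values, by 0.03 at the closest. The difference was 0.54 (SE 0.24, 95% interval -0.02 to 1.09, limma adjusted p = 0.390). It was 0.26 without empty vector replicate 1, an array with a narrower spread of values (SD 2.19) than the other 3 (2.29 to 2.31), and 0.31 without Dlx5 replicate 1. It was 0.77 without Dlx5 replicate 2 and 0.81 without empty vector replicate 2, and passed in none of these.

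The ligand gene Jag1 read 7.25 and 7.30 against 6.75 and 7.45 (0.18, SE 0.24), and its other probe sets gave -0.33 (SE 0.17) and -0.22 (SE 0.19). Dll1, at 5.37 to 5.59 in all 4 arrays, differed by -0.05 (SE 0.17). Notch1 read 6.81 and 6.90 against 6.55 and 6.88 (0.14, SE 0.18), and its second probe set read 6.51 and 6.75 against 6.24 and 6.30 (0.36, SE 0.16, limma adjusted p = 0.503 in the fit of single probe sets). Lfng differed by 0.18 (SE 0.16). The repressor genes differed by 0.10 (Hes1, SE 0.19), -0.06 (Hes5, SE 0.21), 0.06 (Hes6, SE 0.19) and -0.05 (Hey1, SE 0.16). Hey2 read 3.18 and 3.22 against 3.20 and 2.68, under the limit for dim genes. Further Notch genes gave 0 passes in limma among 44 tested. An unadjusted p under 0.05 was found for 5, a share under the 12.9% of all genes, Ncstn (0.56, SE 0.17) and the corepressor gene Tle1 (0.62, SE 0.19) having the smallest p. Only 4 of 14 proneural and neuroblast genes with a probe set were above the limit in these cells.

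**Figure D5:**
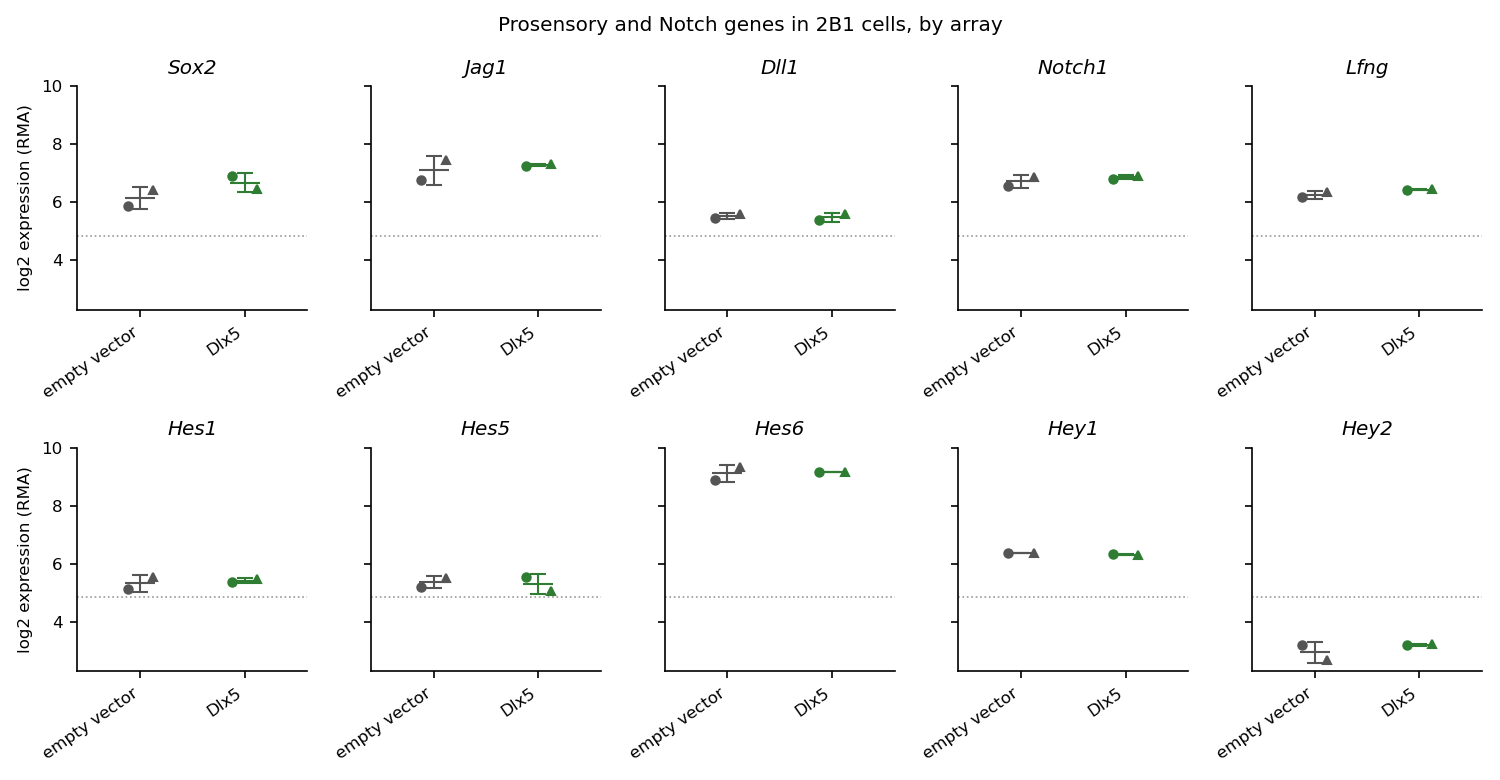
Log2 expression of the 10 genes in the 4 arrays of 2B1 cells, with the probe sets of the vesicle plot. Circles are replicate 1 and triangles replicate 2, horizontal marks and bars are the group mean and SD (n = 2), and the dotted line is the limit for dim genes at 4.85. Sox2 is higher with Dlx5 in both arrays, with values of 6.44 and 6.41 nearly touching, and Hey2 lies under the dotted line.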

How the data were processed

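Log2 values of 45101 probe sets were deposited, made by the authors with RMA in Affymetrix Expression Console per the submitters' processing notes. The sources used here name no versions. Without scanner files or detection calls, which were not used here, the signal above background was not known. RMA corrects background, normalizes quantiles and summarises probes, which compresses dim differences.

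Probe sets with 1 gene (34958) were named through RefSeq gene identifiers (GRCm38.p6). Each gene was represented by its brightest probe set (mean over the fitted arrays), and the lowest 25% of 18194 genes were left out. Differences were tested with limma 3.58.1 (R 4.3.3) over 13645 genes in vesicles and 13647 in 2B1 cells, and all 34958 sets were also tested singly without that filter. SE and 95% intervals are limma's. The effect of label over both stages had 5 residual degrees of freedom, the contrasts of 4 group means 4, and 2B1 2. The vesicle contrasts share arrays. Arrays per group (2) limit precision. The fits were tested on simulated data, where limma called 72% of genes changed by 1 log2 unit by label and 71% by stage over 13645 genes, and 27% in 2B1 cells over 13647. Of changes of that size it called fewer in the contrasts of group means. The share was 40% by label within either stage alone, and by stage 40% in wild-type and 44% in labelled-null vesicles. It was only 3% where the label difference changed between stages, so the lack of passes there says little.

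The members and lists were chosen with earlier results of these data known. Up to 4 genes of a list are named in a comparison, taking those that passed and then the largest differences. Neurog1, Rbpj, Jag2 and any list gene beyond these 4 were named after their values were seen.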

Additional observations from a re-analysis of the deposited data

Results flagged for a closer look

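A probe set of Lfng (the dimmer of its 2) had its labelled-null arrays under the wild-type arrays at E10 and above them at E10.5, and the change between stages was 0.53. At E10 it read 5.32 and 5.36 in wild-type vesicles against 5.21 and 5.26 with the null label, and at E10.5 5.34 and 4.78 against 5.39 and 5.58. Its effect of label was -0.10 and 0.43. The dimmer probe set of Notch1 did the opposite, with labelled-null arrays above at E10 (6.60 and 6.44 against 6.41 and 6.24) and below at E10.5 (6.44 and 6.46 against 6.68 and 6.51), effects of 0.19 and -0.14 and a change of -0.34. The interaction of label and stage had a limma adjusted p of 1.00 for both. With 2 arrays a group, arrays of the 2 labels do not overlap at E10 for 19.1% and at E10.5 for 41.4% of all probe sets tested singly.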

How the results depend on the processing

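Over 54 differences of the 10 genes, 779 alternatives were computed. Of these, 725 kept the direction and the side of the limma threshold, 35 turned the sign of a difference that had not passed, 16 ended a call and 3 made one. Part of this agreement was fixed in advance. The filter on dim genes, an intensity trend and robust prior, and a replicate block leave an estimate as it is. Omitting an array of the other stage does not change a label difference within a stage. A difference far from the threshold also keeps its side easily, so the 725 do not measure robustness. The stage calls of Sox2, Jag1 and Dll1 held under every alternative that used all 8 arrays and without both E10 replicate 1 arrays. That of Hey1 (adjusted p 0.02 to 0.15 over all alternatives) was lost with no filter on dim genes (0.0501), with each array centred on its median (0.0726), with a replicate block over stages (0.0504) and without both E10 replicate 1 arrays. By stage in wild-type vesicles, Jag1 was at -1.05 without both E10 replicate 1 arrays and Hes6 at 0.94 without wild-type E10 replicate 2. Both fits leave a single wild-type E10 array, so their calls, counted above, are not read as results.

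Counts of called genes were less stable. By label over both stages (3 of 13645) they were 0 with the lowest 50% of genes left out, 10 with an intensity trend and robust prior, 20 without both E10 replicate 1 arrays, 0 with Eif2s3y as a covariate, and 0 to 10 with single arrays left out. The split was 1 higher and 2 lower, and 0 and 2 with centred arrays. At E10 (0) the count was 18 without both E10 replicate 1 arrays. At E10.5 (1) it was 0 with the lowest 50% left out, 0 with the mean of a gene's probe sets, 2 with the trend, 3 with centring, 37 without both E10 replicate 1 arrays and 0 to 4 without single arrays. For the interaction (0) it was 3 without both E10 replicate 1 arrays. By stage in wild-type vesicles (296) it was 628 with the trend, 35 with centring, 1689 without both E10 replicate 1 arrays and 0 to 873 without single arrays. By stage in labelled-null vesicles (3) it was 1 with the lowest 50% left out, 0 with the mean of probe sets, 103 with the trend, 1 with centring, 289 without both E10 replicate 1 arrays and 0 to 30 without single arrays. By stage over both genotypes (2158) it was 1324 with centring, and 470 (without wild-type E10.5 replicate 1) to 3800 (without labelled-null E10 replicate 2) without single arrays. In 2B1 cells (0) it was 47 with the trend and 0 to 11 without single arrays. The causes were not tested.

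Same-numbered arrays deviated together at E10 (r = 0.70) but not at E10.5 (0.05), across stages (-0.06 in wild-type, -0.40 in labelled-null) or in 2B1 cells (-0.12), so the numbers were not taken to pair samples. With the replicate block, counts were 18 by label, 11 at E10.5, 115 by stage in wild-type, 0 by stage in labelled-null vesicles and 258 in 2B1 cells, and no member passed by label or in 2B1 cells. With crossed numbers they were 217 by stage in labelled-null vesicles and 20 in 2B1 cells. For stage, the block shared a number across stages, since one within a stage could not be fitted beside stage. The stage comparison over both genotypes, that block and the crossed numbers were chosen after seeing the data.

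Signs turned as follows. By label, Notch1 was 0.18 and Hey1 0.15 with Eif2s3y as a covariate, and leaving out single arrays gave -0.18 to 0.11 for Notch1, -0.15 to 0.01 for Hes1, -0.073 to 0.001 for Hes5 and -0.097 to 0.043 for Hey1. At E10, Jag1 was -0.15 without both E10 replicate 1 arrays and Notch1 -0.065 to 0.445 without single arrays. Hes6 was -0.07 to 0.04 at E10.5, and the interaction of Sox2 -0.02 with centring and -0.17 to 0.21 without single arrays. By stage, Hes6 in labelled-null vesicles was -0.085 without both E10 replicate 1 arrays and -0.085 to 0.195 without single arrays, Hes1 was 0.005 without both, Hes5 -0.02 with the mean of probe sets, and Hey2 -0.009 to 0.076 without single arrays. In 2B1 cells Jag1 was -0.13 with the mean of probe sets, and leaving out single arrays gave -0.18 to 0.53 for Jag1, -0.025 to 0.305 for Notch1, -0.155 to 0.065 for Dll1, -0.12 to 0.31 for Hes1, -0.31 to 0.19 for Hes5 and -0.16 to 0.27 for Hes6. Hes1, Hes5 and Hey2 lie near the limit for dim genes, where differences are compressed.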
